A study of Mustela putorius furo with 2 samples.

Results

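The voltage-gated sodium and calcium channel genes were followed across the cell classes and the cortical bands of a ferret (Mustela putorius furo) cortex in which the doublecortin gene DCX is mutated. Members were taken by symbol: every row named SCN with a number and A or B, or beginning with CACNA, CACNB or CACNG, which gave 38 genes of 28156 features, of which 14296 carry a symbol. By subunit role these were 9 sodium channel α and 4 sodium channel β genes, 10 calcium channel α1 genes (4 Cav1, 3 Cav2 and 3 Cav3), 4 α2δ genes, 3 calcium channel β genes and 8 γ genes. CACNB4 and SCN11A were not analysed here. The samples were nuclei from the somatosensory cortex of animals whose genotype the labels give as DCX knockout, while the series text speaks of a knockdown. One library came from the region labelled upper band of cortex and 1 from the region labelled deeper band of cortex, and no wild-type tissue was analysed here. The labels do not give the age or sex of the ferrets, or whether both bands came from 1 animal. With 1 library per band there are no replicates, so band cannot be told apart from library, and no p-value is given.

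Voltage-gated sodium channels open on depolarisation and carry the rising phase of the action potential. Each is a single large α subunit that forms the pore, joined by small β subunits that adjust gating and surface density. Calcium channels of the Cav family let calcium in during depolarisation, and so couple firing to transmitter release, dendritic signalling and gene expression. The Cav1 (L-type) and Cav2 (P/Q-, N- and R-type) pores assemble with a cytoplasmic β subunit and an extracellular α2δ subunit that carries them to the membrane, while the Cav3 (T-type) pores open near the resting potential and shape burst firing. The γ genes are named after a muscle calcium channel subunit, but CACNG2, CACNG3, CACNG4 and CACNG8 encode TARPs, auxiliary subunits of AMPA-type glutamate receptors, and CACNG5 and CACNG7 encode related proteins. DCX encodes a microtubule-binding protein of migrating neurons, and its loss in other mammals leaves displaced neurons in a band beneath the normal cortex.

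After nuclei with under 500 genes and called doublets were removed, 6261 upper-band and 8150 deeper-band nuclei remained, with 52352189 and 53363232 unique molecular identifiers (UMIs, each a captured RNA molecule) and medians of 7992 and 4888 UMIs per nucleus. Clusters built without the channel genes were named from marker genes. They gave 3184 and 3454 excitatory neuron-like nuclei in the upper and deeper band, 1021 and 769 inhibitory neuron-like, 388 and 806 astrocyte-like, 926 and 2524 oligodendrocyte-like, 125 and 193 oligodendrocyte precursor-like and 263 and 155 vascular-like, while 354 and 249 stayed unnamed. The suffix "-like" is dropped from here on. The classes carried their defining genes (CAMK2A, GAD1 and GAD2, SLC1A2, MBP, PDGFRA, FLT1), although the vesicular transporters SLC17A7 and SLC32A1 were low in their own classes, at 66.4 and 89.4 CPM (UMIs scaled to a common total) of SLC17A7 in excitatory nuclei and 0.816 and 0.98 CPM of SLC32A1 in inhibitory nuclei. DCX RNA was present at 78.5 and 77.2 CPM, upper band first, which does not check the genotype, since the edited part of the gene is not known here. The libraries shared 24 barcodes.

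Levels are CPM, a gene's UMIs summed over all nuclei of a class in a library and scaled to a common total, and pairs of values are given as upper band and then deeper band. Intervals are exact 95% Poisson intervals, or exact binomial intervals for a ratio, and cover counting error only. Levels are not compared between genes, because capture in nuclei depends on gene length and on how the annotation ends each gene. The channel genes together took 0.815% of all upper-band UMIs and 0.842% of all deeper-band UMIs. Of the 38 genes, 31 reached 200 UMIs over both libraries in at least 1 class. The other 7 were CACNA1F, CACNA1H, CACNA1S, CACNG1, CACNG6, SCN4A and SCN10A, which include the pores and the γ subunit known from skeletal muscle, the retina and sensory neurons. CACNG1 had 0 UMIs in the named and unnamed nuclei of both libraries, and the other 6 stayed at or under 4.21 CPM in the 5 neuronal and macroglial classes.

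Most channel genes were highest in neurons. The same class was highest in both libraries for 26 of the 31 genes, with 17 highest in excitatory nuclei, 7 in inhibitory nuclei and 2, CACNG4 and CACNG7, in oligodendrocyte precursors. The CACNG7 level in precursors rests on 17 and 26 UMIs, and its intervals overlap those of inhibitory nuclei. For these highest-class counts the share over all genes was not computed, so the counts only describe the channel genes. Excitatory nuclei held more UMIs than any other class, at 37351986 and 38200014, so genes high there reach the UMI minimum more easily. A class was counted as leading a gene where its level was at least 2-fold that in each of the other 4 classes in both libraries, which left out the small vascular class. Excitatory nuclei led 6 of 30 channel genes with enough UMIs (CACNA1E, CACNA1I, CACNB3, CACNG5, SCN4B and SCN7A), against 3.4% of 11339 genes tested. Enough UMIs here means at least 200 over the compared classes together in each library. CACNB3, CACNG5, SCN4B and SCN7A reached this only through excitatory nuclei. Inhibitory nuclei led 1, CACNA2D2, against 1.82% of genes, and precursors led 1, CACNG4, against 1.68%. No channel gene was led by astrocytes or oligodendrocytes under this rule. Without the removal of doublets, excitatory nuclei led 3 channel genes.

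**Figure D1:**
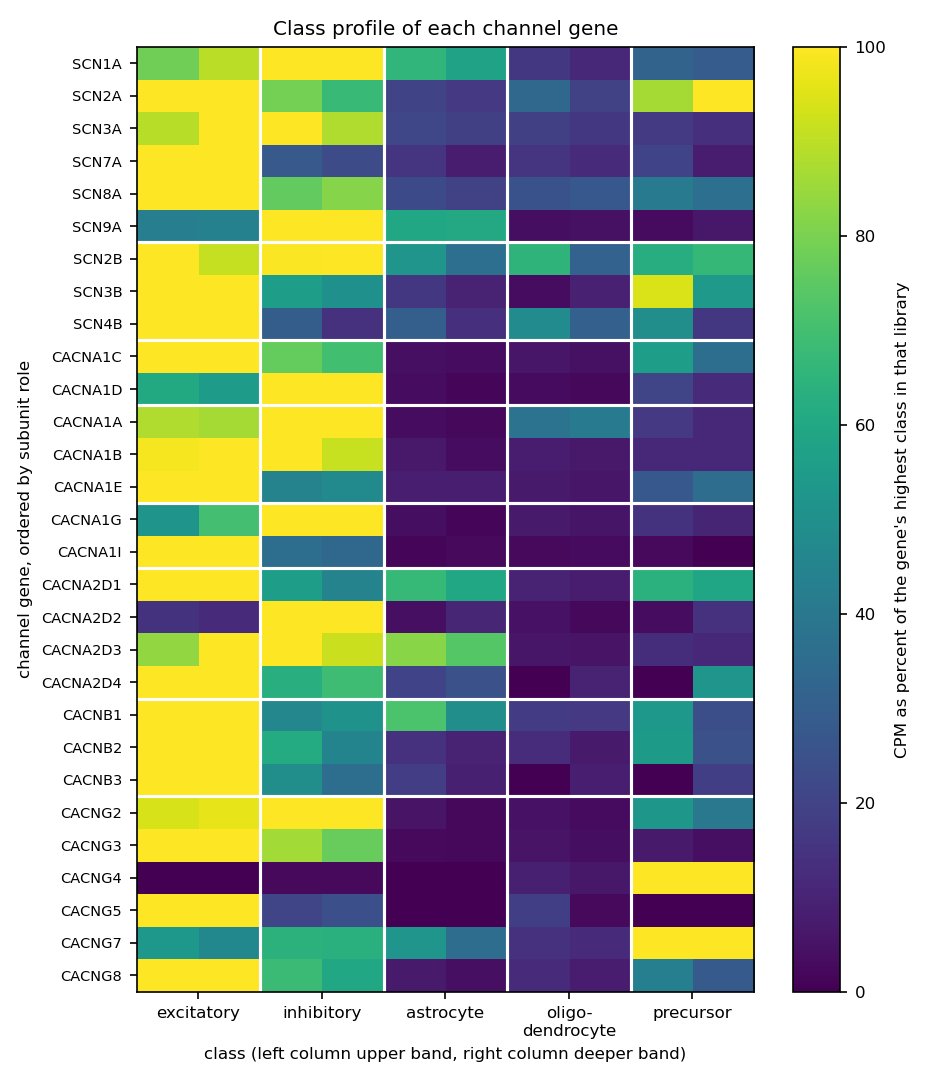
Rows are 29 channel genes with enough UMIs, ordered by subunit role with white lines between roles, and columns are the 5 classes, each with the upper band on the left and the deeper band on the right. Colour gives the level as a percent of that gene's own highest class in the same library, so colours compare classes within a gene; CACNG4 is bright only in the precursors, and most other rows are brightest in the excitatory or inhibitory columns.

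Among the sodium channel α genes, SCN1A was slightly higher in inhibitory than excitatory nuclei and was also present in astrocytes. SCN1A encodes the channel whose loss impairs the firing of inhibitory neurons. Its level was 556 and 664 CPM in excitatory, 712 and 742 CPM in inhibitory and 469 and 428 CPM in astrocyte nuclei, and 115 and 81.9 CPM in oligodendrocytes. SCN2A, a main channel of the axons of excitatory neurons, stood at 579 and 627 CPM in excitatory and 459 and 423 CPM in inhibitory nuclei. Precursors came close to excitatory nuclei for SCN2A, at 502 CPM (432 to 579.6) in the upper and 627 CPM (558 to 702) in the deeper band. SCN8A, the channel of nodes of Ranvier and of the mature axon initial segment, was at 512 and 543 CPM in excitatory, 389 and 443 CPM in inhibitory, 212 and 198 CPM in precursor and 129.7 and 149 CPM in oligodendrocyte nuclei. SCN3A, best known from the fetal brain, was at 199 and 219 CPM in excitatory and 223 and 193 CPM in inhibitory nuclei, so the class with the higher level differed between the libraries.

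SCN9A, best known from peripheral sensory neurons, was higher in inhibitory than excitatory nuclei, at 276 and 288 against 118 and 127 CPM. Astrocytes lay between them, at 166 CPM (144 to 191) in the upper and 174 CPM (157 to 194) in the deeper band, while oligodendrocytes had 9.74 and 12.8 CPM. SCN7A, which encodes a channel relative known as a sensor of extracellular sodium, was at 26.7 and 27 CPM in excitatory and 7.46 and 6.2 CPM in inhibitory nuclei. Since the α genes share long stretches of similar coding sequence and the counting rule is not given, reads could be split between them, and this was not tested. Of the β genes, SCN2B was at 52.4 and 60.5 CPM in excitatory and 52 and 66.3 CPM in inhibitory nuclei. SCN3B and SCN4B were higher in excitatory than inhibitory nuclei, SCN3B at 25.8 and 31.2 against 14.5 and 15.7 CPM and SCN4B, linked to resurgent sodium current, at 27.5 and 26.1 against 8.16 and 3.75 CPM.

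The L-type pores divided between the neuron classes. CACNA1D was higher in inhibitory than excitatory nuclei, at 996 and 1106 against 605 and 607 CPM, and CACNA1C was higher in excitatory nuclei, at 425 and 440.3 against 325 and 307 CPM. Precursors carried 239 and 159.9 CPM of CACNA1C and 209 and 135 CPM of CACNA1D, against 25.7 and 19.5 and 31 and 24.8 CPM in oligodendrocytes. Of the pores that serve transmitter release, CACNA1A (P/Q-type) was at 622 and 657 CPM in excitatory and 706 and 759.9 CPM in inhibitory nuclei, and CACNA1B (N-type) was at 327 and 341 and 332 and 312 CPM. CACNA1E (R-type) was higher in excitatory nuclei, at 1063 and 1025 CPM against 475 and 490.4 CPM in inhibitory nuclei, with 293 and 366 CPM in precursors. The T-type pores went in opposite directions. CACNA1I was at 114 and 111 CPM in excitatory and 41.4 and 37.1 CPM in inhibitory nuclei, whereas CACNA1G was at 47.9 and 42 and 92.8 and 59.9 CPM.

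The α2δ genes differed from one another in class profile. CACNA2D1, a binding site of gabapentin, was at 954 and 1065 CPM in excitatory, 532 and 477 CPM in inhibitory, 639 and 635 CPM in astrocyte and 608 and 629 CPM in precursor nuclei, but at 93.4 and 83.8 CPM in oligodendrocytes. CACNA2D3 was at 1695 and 2102 CPM in excitatory and 2027 and 1929.7 CPM in inhibitory nuclei, and astrocytes came close, at 1669 CPM (1597 to 1743) in the upper and 1545 CPM (1491 to 1600.5) in the deeper band. CACNA2D2 was at 84.5 and 74 CPM in inhibitory nuclei and 12.4 and 9.24 CPM in excitatory nuclei, and CACNA2D4 was at 4.1 and 4.03 CPM in excitatory nuclei. The β subunit genes were all higher in excitatory than inhibitory nuclei. CACNB2 was at 134 and 169 against 82.8 and 75.7 CPM, CACNB1 at 25.5 and 26.4 against 11.8 and 13.6 CPM and CACNB3 at 9.21 and 11.3 against 4.55 and 4.08 CPM.

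Of the TARP genes, CACNG4 stood out in the precursors, at 635 CPM (556 to 722) in the upper and 574 CPM (508 to 647) in the deeper band. Inhibitory nuclei had 17.3 and 13.6 CPM, oligodendrocytes 55.8 and 36.3 CPM, and excitatory nuclei 0.294 and 0.628 CPM. The other TARP genes were neuronal: CACNG3 at 386 and 443 CPM in excitatory and 332 and 339.9 CPM in inhibitory nuclei, CACNG8 at 163 and 156 and 111 and 92.9 CPM, and CACNG2, the stargazin gene, at 275 and 302 and 293 and 314 CPM. Precursors also had 155 and 126 CPM of CACNG2. CACNG7 was at 46.1 CPM (26.9 to 73.8) in the upper and 54.7 CPM (35.7 to 80.1) in the deeper band in precursors, 29.6 and 34.8 CPM in inhibitory and 24.6 and 25.5 CPM in excitatory nuclei, and CACNG5 was at 9.45 and 7.41 CPM in excitatory and 1.98 and 1.8 CPM in inhibitory nuclei.

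Set directly against each other in each library, inhibitory nuclei carried more of 2 channel genes and less of 7 than excitatory nuclei by at least 2-fold in both libraries, of 29 channel genes tested. A gene was tested where it had at least 200 UMIs over the 2 classes together in each library. Over 10783 genes tested, 5.56% were higher and 6.69% lower by this rule. The genes higher in inhibitory nuclei were CACNA2D2, with a log2 ratio of 2.76 (2.59 to 2.93) in the upper and 3.0 (2.80 to 3.21) in the deeper band, and SCN9A, with 1.22 (1.15 to 1.30) in the upper and 1.18 (1.10 to 1.26) in the deeper band. Among the genes lower were CACNG5, SCN7A, SCN4B, CACNA1I, CACNA1E and CACNB3, which hold a T-type and an R-type pore, a sodium channel β subunit, a calcium channel β subunit and a TARP relative. Their log2 ratios were -2.25 (-3.05 to -1.55) and -2.04 (-3.06 to -1.18) for CACNG5 and -1.84 (-2.23 to -1.48) and -2.12 (-2.63 to -1.65) for SCN7A. SCN4B was at -1.75 (-2.12 to -1.40) and -2.80 (-3.46 to -2.20), and CACNA1I at -1.47 (-1.63 to -1.31) and -1.58 (-1.78 to -1.39). CACNA1E was at -1.16 (-1.21 to -1.12) and -1.06 (-1.12 to -1.01), and CACNB3 at -1.02 (-1.54 to -0.54) and -1.47 (-2.11 to -0.89). CACNG5 (17 and 11 inhibitory UMIs), CACNB3 (39 and 25), SCN4B (70 and 23) and SCN7A (64 and 38) passed the UMI minimum only through excitatory nuclei. The median log2 ratio over the channel genes was -0.39 and -0.52, beside 0.08 and 0.09 over all genes tested. With doublets kept, the counts were 1 higher (SCN9A stood at 0.84 in the deeper band) and 4 lower.

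Inhibitory neurons are commonly divided by SST, by ADARB2, which marks neurons from the caudal ganglionic eminence, and by genes of parvalbumin-type neurons such as MYO18B. The 12 inhibitory subclusters fell into 3 groups by these genes, with thresholds chosen after their levels were seen. These were SST-high (353 and 214 nuclei), ADARB2-high (332 and 289) and MYO18B-high (336 and 266). A separate score over whole marker lists did not follow this split. It gave the parvalbumin name to the MYO18B-high subclusters and also to SST-high ones of 273, 176 and 84 nuclei. Those SST-high ones had 3, 3 and 4 parvalbumin-list markers raised, against 2 each of the SST list. Of these, 0, 0 and 1 against 2, 2 and 1 were 2-fold over the other inhibitory nuclei. Of 21 channel genes with enough UMIs, 7 had the same highest group in both libraries and at least 2-fold over the lowest group, against 15.4% of 5161 genes. They were CACNA2D1, CACNA2D2, CACNA2D3, CACNA1A, CACNA1E, CACNA1G and SCN9A. These are descriptions of clustered nuclei and not tests, although no channel gene entered the clustering. With doublets kept the count was 11.

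The α2δ genes each had a different leading group. CACNA2D3 was highest in SST-high nuclei, at 4121 CPM (4043 to 4199.9) in the upper and 4263 CPM (4162 to 4366) in the deeper band, lower in ADARB2-high nuclei, at 2032 and 2373 CPM, and lowest in MYO18B-high nuclei, at 439 and 267 CPM. SST-high nuclei thus held 9.39 and 16 times the MYO18B-high level. CACNA2D1 was highest in ADARB2-high nuclei, at 1365 CPM (1320.0 to 1411) in the upper and 1235 CPM (1184 to 1286) in the deeper band, against 305 and 292 CPM in SST-high and 75.8 and 69.9 CPM in MYO18B-high nuclei, and the highest level was 18 and 17.7 times the lowest. CACNA2D2 had the reverse order, with 127 CPM (115 to 139) in the upper and 112 CPM (99.4 to 125) in the deeper band in MYO18B-high nuclei, 94 and 76.7 CPM in SST-high nuclei and 19 and 16.3 CPM in ADARB2-high nuclei. Counting intervals of the 3 groups did not overlap for any of these 3 genes in the upper band or in the deeper band.

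Subclusters within a group differed too. Over the 5 ADARB2-high subclusters CACNA2D1 ranged over 319.8 to 2747 CPM in the upper and 437 to 2469 CPM in the deeper band, with its highest levels, above 2000 CPM, in a subcluster led by SEMA3C, COCH and NDNF and in one with LAMP5 among its leading genes. CACNA2D3 in the 4 SST-high subclusters ranged over 3572 to 8737 CPM in the upper and 3701 to 9272 CPM in the deeper band, and its top value belonged to a subcluster of 22 and 12 nuclei led by CHODL, CDH1 and NOS1. In the 3 MYO18B-high subclusters CACNA2D3 stayed at 286 to 609 CPM in the upper and 215 to 554 CPM in the deeper band.

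The pore genes sorted by the same groups. CACNA1A was highest in MYO18B-high nuclei, at 972 and 1013 CPM, against 679 and 737 CPM in SST-high and 381 and 407 CPM in ADARB2-high nuclei. SCN9A was also highest in MYO18B-high nuclei, at 451 and 437 CPM, against 154 and 141 and 168 and 197 CPM. CACNA1E led in SST-high nuclei, at 764 and 793 CPM, against 316 and 299 CPM in ADARB2-high and 376 and 444 CPM in MYO18B-high nuclei. CACNA1G was lowest in MYO18B-high nuclei, at 50.6 and 32.9 CPM, and higher in the SST-high (128 and 90.6 CPM) and ADARB2-high nuclei (113 and 73.3 CPM), whose counting intervals overlapped in both libraries. By contrast SCN1A stayed between 615 and 801 CPM across the 3 groups and both libraries.

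**Figure D2:**
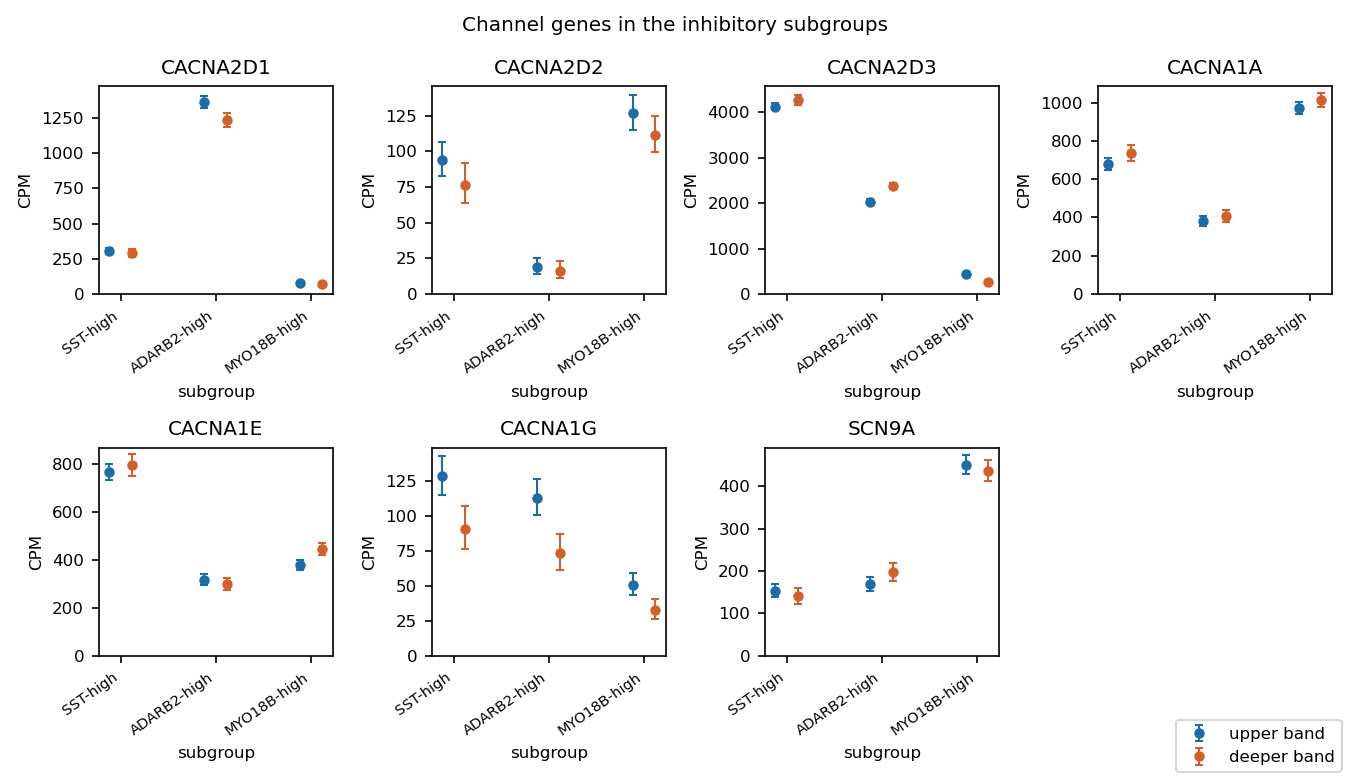
Each panel is 1 of the 7 channel genes past 2-fold between inhibitory subgroups, with CPM on the vertical axis and the 3 subgroups on the horizontal axis; blue points are the upper band, orange points the deeper band, and bars are exact 95% Poisson intervals. The 3 α2δ genes in the first 3 panels have their highest points in 3 different subgroups, and the blue CACNA1G points lie above the orange ones in each subgroup.

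Excitatory nuclei were divided by CUX2 and RORB, genes of upper-layer and layer-four neurons, and by FOXP2, FEZF2 and NXPH4, genes of deep-layer neurons. This gave 7 groups, again with thresholds chosen after the levels of these genes were seen, and their shares differed strongly between the bands. CUX2-high nuclei without high RORB made up 22.3% and 46.1% of excitatory nuclei in the upper and deeper band, nuclei high in both made up 20.3% and 38%, those high in RORB only 15.7% and 4.83%, FOXP2-high 17.4% and 3.59%, FEZF2-high 8.92% and 1.22%, NXPH4-high 2.8% and 2.69%, and a subcluster led by GALNT14 and SEMA3E, high in none of the 5 genes, 12.6% and 3.5%. Of 28 channel genes with enough UMIs, 11 had the same highest group in both libraries and at least 2-fold over the lowest, against 21% of 10165 genes, and 7 did so after thinning.

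CACNA2D3 spanned the widest range of the abundant genes. It was at 2916 CPM (2879 to 2954) in the upper and 2578 CPM (2552 to 2605) in the deeper band in nuclei high in CUX2 and RORB, and at 421 and 349.7 CPM in FOXP2-high nuclei. CACNA1E had its highest level in NXPH4-high nuclei, at 1945 CPM (1851 to 2043) in the upper and 2180.0 CPM (2084 to 2279) in the deeper band, and its lowest in FEZF2-high nuclei, at 558 and 501 CPM. CACNA2D1 was lowest in the NXPH4-high nuclei, at 409.8 and 404 CPM, with the other groups between 830.5 and 1178 CPM. SCN1A and SCN9A both peaked in nuclei high in CUX2 and RORB, at 671 and 721 CPM for SCN1A and 185 and 168 CPM for SCN9A. In FOXP2-high nuclei SCN1A was at 408 and 389.8 CPM and SCN9A at 52 and 45.7 CPM. SCN2A and SCN8A were nearly flat: SCN2A lay between 484 and 676 CPM, and SCN8A between 470.5 and 579 CPM, over the 7 groups and both libraries.

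Of the 2 FEZF2-high subclusters, the one led by KLHL14 and HHLA2 held 192 and 207 CPM of CACNA2D3, the lowest CACNA2D3 levels of the 12 excitatory subclusters. CACNG5 was highest in FOXP2-high nuclei, at 20.6 and 25.7 CPM, and CACNA2D2 in FEZF2-high nuclei, at 30.2 and 30.8 CPM. These deeper-band levels rest on few UMIs of the gene, in 124 FOXP2-high nuclei with 1246902 UMIs and 42 FEZF2-high nuclei with 585046 UMIs. SCN7A was highest in the GALNT14-led group, at 46.9 and 52.1 CPM, and SCN3B in NXPH4-high nuclei, at 42.4 and 50.5 CPM. SCN4B, CACNG3 and CACNG8 were highest in CUX2-high nuclei without high RORB, at 35.1 and 30.9 CPM for SCN4B, 577 and 602 CPM for CACNG3 and 206 and 179 CPM for CACNG8. The lowest SCN4B levels, 9.7 and 1.12 CPM in 89 and 93 NXPH4-high nuclei, also rest on few UMIs.

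**Figure D3:**
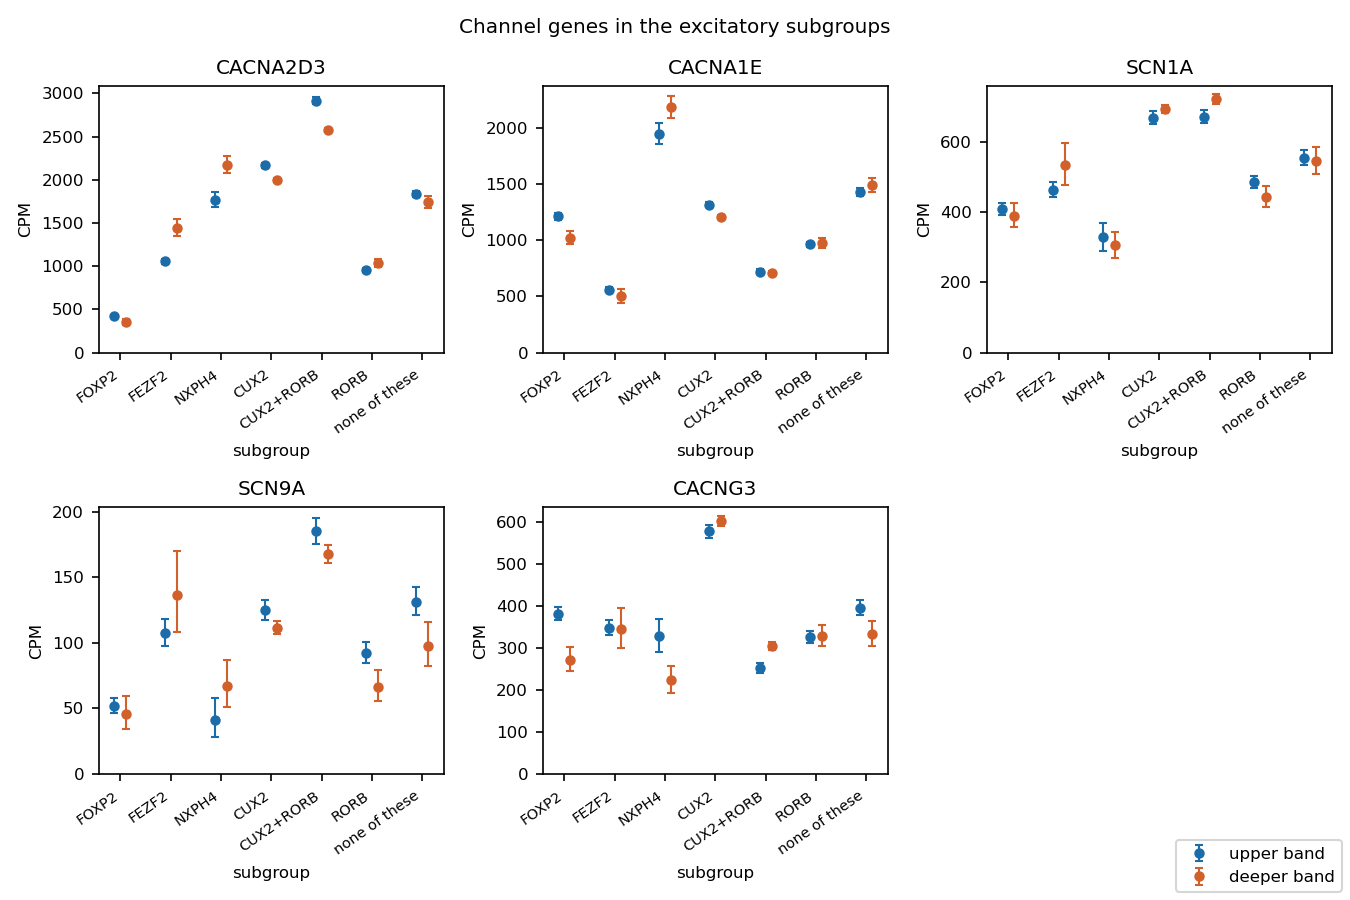
Panels give CPM of 5 channel genes in the 7 excitatory subgroups, named by the genes that are high in them, with the upper band in blue, the deeper band in orange and exact 95% Poisson intervals as bars. CACNA2D3 is lowest in the FOXP2 subgroup and CACNA1E is highest in the NXPH4 subgroup, in both libraries.

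Glial levels were read against those of neuronal genes, since RNA released from broken cells enters every droplet and gives UMIs in cells that do not express a gene. For 8 neuronal reference genes (SYT1, SNAP25, RBFOX3, CAMK2A, SLC17A7, GAD1 and GAD2 among them), the astrocyte level was a median of 7.14% and 7.04% of the level in the higher neuron class. The medians were 9.58% and 8.01% in oligodendrocytes and 8.18% and 8.3% in precursors. Reference genes reached up to 78.7%, for SLC17A7, which was low in neurons as well, and SNAP25 reached 53.5%, so the reference is wide. In astrocytes CACNA2D3 stood at 82.3% and 73.5% of the neuron level, above every reference gene in both libraries. CACNA2D1 stood at 67% and 59.6%, SCN1A at 65.9% and 57.7% and SCN9A at 60% and 60.5%, each above every reference gene but SLC17A7 in the upper band and above all 8 in the deeper band. The same 4 genes were lower in oligodendrocytes, where CACNA2D3 was at 6.22% and 5.28%, CACNA2D1 at 9.79% and 7.87% and SCN1A at 16.1% and 11%, while SCN9A was at 9.74 and 12.8 CPM, and SYT1, the reference gene with the most UMIs in glia, was at 9.0% and 8.64% in astrocytes and 11% and 10% in oligodendrocytes.

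Shares of nuclei with a UMI were read at a common depth. Each nucleus was thinned to 1500 UMIs, which left out 14 and 52 shallower astrocytes, 15 and 8 inhibitory nuclei, 84 and 451 oligodendrocytes and 6 and 8 precursors. CACNA2D3 was then detected in 89.3% and 86.9% of astrocytes, 73.6% and 69.5% of inhibitory nuclei, where its level was higher, and 17.2% and 15.4% of oligodendrocytes, and before thinning in 95.9% and 92.7%, 90.5% and 85.8% and 26.6% and 20.3%. Median depths in those classes were 2804 and 2420.0, 7634 and 7253 and 2250.5 and 1922 UMIs. SCN9A was detected in 22.5% and 20.3% of thinned astrocytes and 1.78% and 1.78% of thinned oligodendrocytes. CACNG4 was detected in 61.3% and 53.5% of thinned precursors and 0.0316% and 0.116% of thinned excitatory nuclei. SCN2A, at 86.6% and 99.9% of the neuron level in precursors, was above all 8 reference genes there in both libraries and was detected in 53.8% and 55.7% of thinned precursors.

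CACNA1A in oligodendrocytes stood at 38.2% and 41.2% of its inhibitory level, below SLC17A7 and SNAP25 but above the other 6 reference genes. Astrocytes had 23.2 and 16.6 CPM of CACNA1A against 270.0 and 313 CPM in oligodendrocytes. It differed among the 3 oligodendrocyte clusters in the same order in both libraries. The cluster led by ABCA9, RASGRP3 and ENPP6 had 519 CPM (421 to 632) in the upper and 521 CPM (479.7 to 566) in the deeper band, the cluster led by MOBP and PHLDB1 had 318 and 292 CPM, and the cluster led by OPALIN had 120.0 and 225 CPM. ENPP6 is known as a gene of newly formed oligodendrocytes. The cluster had 2 markers of the newly formed list raised and 10 of the oligodendrocyte list, which is the longer list. The OPALIN and MOBP clusters each had 1 and 10 raised. CACNG4 was lowest in the cluster where CACNA1A was highest, at 15.9 and 5.4 CPM in the ENPP6 cluster, 55.7 and 48.9 CPM in the MOBP cluster and 66.1 and 40.7 CPM in the OPALIN cluster. Called doublets were removed first, and the part of remaining mixed droplets was not tested. The vascular class, of 263 and 155 nuclei with medians of 1136 and 1122 UMIs, showed 339 and 533 CPM of CACNA1C and 360.2 and 1031 CPM of CACNA2D3, and was not compared further.

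**Figure D4:**
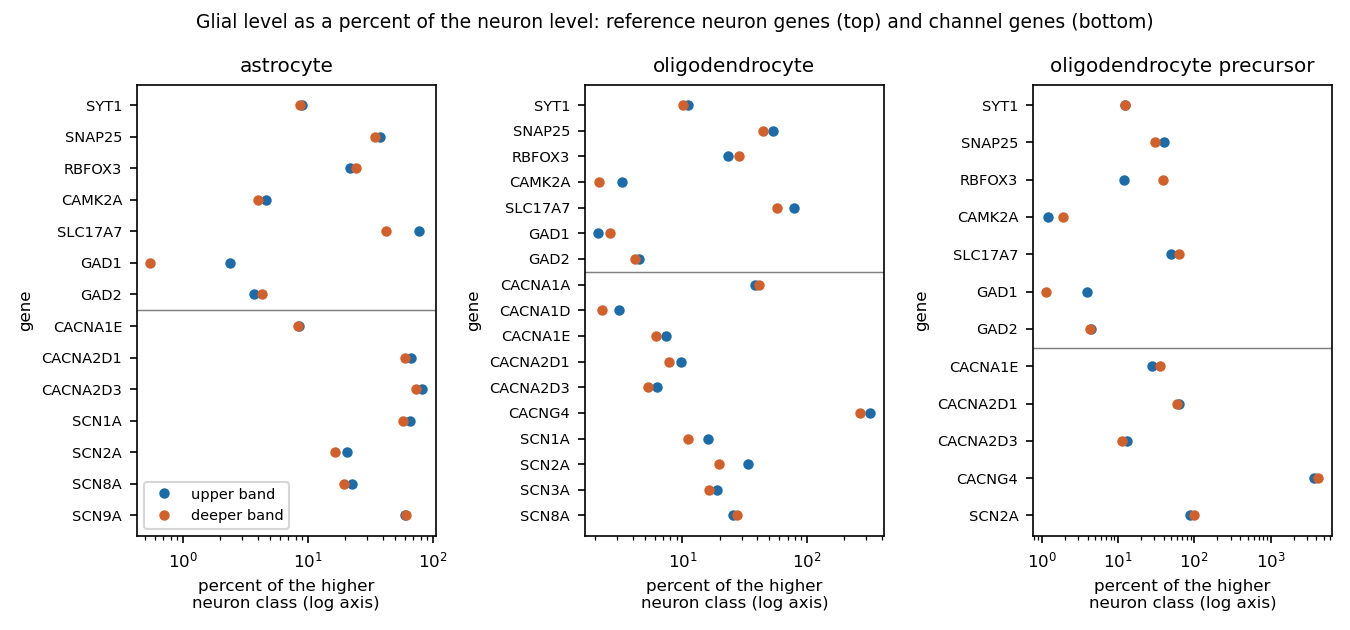
Each panel is 1 glial class, with genes as rows and the glial level as a percent of the higher neuron class on a log axis, upper band in blue and deeper band in orange. Reference neuron genes are above the grey line and the channel genes with enough UMIs in that class below it; CACNA2D3 in astrocytes, CACNG4 in oligodendrocytes, and CACNG4 and SCN2A in precursors lie to the right of all reference genes shown of the same library.

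Between the bands, few channel genes differed by much. In excitatory nuclei 2 of 30 channel genes were past 1.5-fold, against 7.86% of 12241 genes, and the median log2 ratio of deeper over upper band was 0.07, beside -0.02 for all genes. By count 21 ratios were above 0 and 9 below, and for 17 and 6 of them the counting interval lay wholly above or below 0. The same counts were not made over all genes, so they only describe the channel genes. At high UMI counts small ratios are clear of 0, as for CACNA1C at 0.05 with 15869 and 16821 UMIs. In inhibitory nuclei 1 of 23 was past 1.5-fold, CACNA1G, against 2.96% of 7984 genes, with a median of -0.07 beside -0.01 for all genes. Neither count past 1.5-fold stands far from the share over all genes. In astrocytes 0 of 7 were past 1.5-fold (2.68% of 3204 genes) and in precursors 0 of 5 (1.46% of 890 genes), by size alone.

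**Figure D5:**
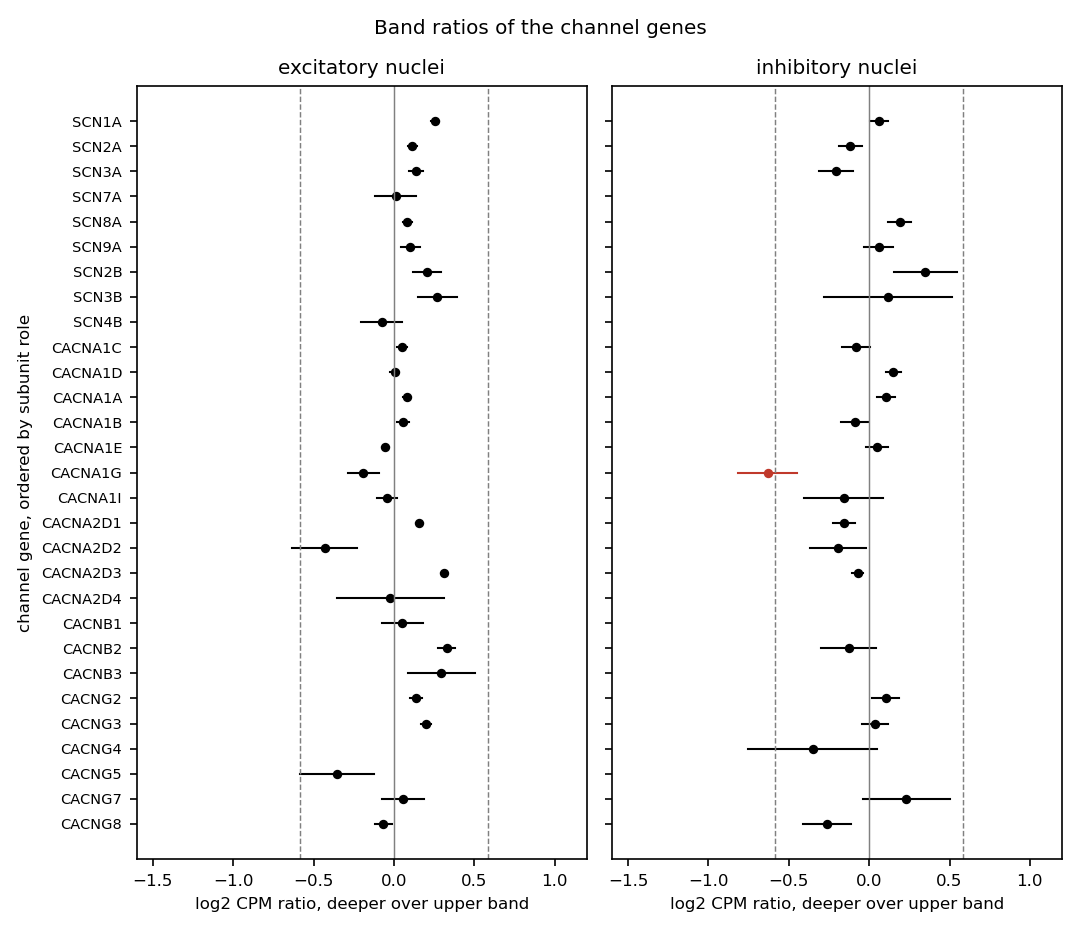
Points give each channel gene's CPM in the deeper band divided by that in the upper band, on a log2 axis, for reported genes with at least 200 UMIs in excitatory (left) or inhibitory nuclei (right), bars are exact 95% counting intervals, and dashed lines mark 1.5-fold in either direction. CACNA1G in inhibitory nuclei, in red, is past 1.5-fold; the intervals do not include variation between animals or libraries.

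Apart from CACNA1G in inhibitory nuclei, the main pores of cortical neurons differed between the bands by less than 1.5-fold. In excitatory nuclei the log2 ratio was 0.26 (0.23 to 0.28) for SCN1A, 0.12 (0.09 to 0.14) for SCN2A, 0.14 (0.09 to 0.18) for SCN3A and 0.08 (0.05 to 0.11) for SCN8A. For the calcium channel pores it was 0.08 (0.05 to 0.11) for CACNA1A, 0.06 (0.02 to 0.09) for CACNA1B, 0.05 (0.02 to 0.08) for CACNA1C, -0.05 (-0.07 to -0.03) for CACNA1E and -0.19 (-0.29 to -0.09) for CACNA1G. In inhibitory nuclei the ratio was 0.06 for SCN1A, -0.12 for SCN2A, -0.21 for SCN3A, 0.19 for SCN8A, 0.11 for CACNA1A, -0.09 for CACNA1B, -0.08 for CACNA1C and 0.05 for CACNA1E. Among the other subunits with at least 200 UMIs, excitatory ratios were 0.16 for CACNA2D1, 0.33 for CACNB2, 0.14 for CACNG2, 0.20 for CACNG3 and -0.07 for CACNG8. The same genes were at -0.16, -0.13, 0.10, 0.03 and -0.26 in inhibitory nuclei. Several of these ratios took the other sign under at least 1 alternative, among them CACNA1B (-0.02 after thinning), CACNG2 (-0.0004) and CACNG3 (-0.10, both with equal weight for each subcluster) in excitatory nuclei. In inhibitory nuclei these included CACNA1A (-0.03 after thinning), CACNA2D1 (0.08 with equal weights) and SCN2A (0.01 with doublets kept).

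Excitatory band ratios were also computed with equal weight for each subcluster of at least 50 nuclei in each library. This kept 9 of the 12 subclusters, and no channel gene was then past 1.5-fold. CACNA2D3, at 0.31 (0.30 to 0.33) in the class as a whole, was -0.11 (-0.14 to -0.09) and -0.18 (-0.20 to -0.15) in the 2 CUX2-high groups and -0.0033 with equal weights. SCN1A, at 0.26 in the class as a whole, came to 0.0041 with equal weights.

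CACNA1G, a T-type pore, was lower in the deeper band in each inhibitory subgroup. It was at 92.8 CPM (86.5 to 99.5) in the upper and 59.9 CPM (53.9 to 66.4) in the deeper band, and the log2 ratio was -0.63 (-0.81 to -0.45). Within the groups the ratio was -0.50 (-0.80 to -0.22) in SST-high, -0.62 (-0.93 to -0.32) in ADARB2-high and -0.62 (-1.01 to -0.25) in MYO18B-high nuclei. It was lower in the deeper band in 10 of 12 inhibitory subclusters and in 11 of 12 excitatory subclusters. Subclusters are parts of the same 2 libraries and not replicates, and some were small, such as an inhibitory one of 28 and 8 nuclei. The share over all genes was not computed for these subcluster counts. Under the 11 alternatives the inhibitory ratio ran from -0.67 to -0.58, the last, from means over nuclei, just under 1.5-fold. With 1 library for each band, band and library cannot be told apart for this difference. CACNA2D3 went in different directions in the groups: it was -0.72 (-0.85 to -0.59) in MYO18B-high nuclei, 0.22 (0.17 to 0.28) in ADARB2-high nuclei and 0.05 (0.0047 to 0.09) in SST-high nuclei, and over the class as a whole -0.07. The makeup of the MYO18B-high group moved too. Its subcluster led by CEMIP held 168 and 195 nuclei at 286 and 215 CPM of CACNA2D3, the one led by ADGRL4 152 and 37 nuclei at 609 and 554 CPM, and the one led by UNC5B 16 and 34 nuclei at 553 and 289 CPM.

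In oligodendrocytes 2 of 10 channel genes were past 1.5-fold, both lower in the deeper band, against 2.93% of 5495 genes past 1.5-fold in either direction and 0.965% lower. SCN2A was at 193 and 124 CPM, with a log2 ratio of -0.64 (-0.82 to -0.46), and CACNG4 at 55.8 and 36.3 CPM, with -0.62 (-0.95 to -0.28). Each was lower in the deeper band in all 3 oligodendrocyte clusters, which are parts of the same 2 libraries and not replicates. The share over all genes was not computed for this. For SCN2A the levels were 224 and 143 CPM in the OPALIN cluster, 178 and 108 CPM in the MOBP cluster and 180.0 and 115 CPM in the ENPP6 cluster. SCN1A was at -0.49 (-0.71 to -0.26), CACNA1E at -0.32 (-0.59 to -0.05), SCN3A at -0.24 (-0.60 to 0.14), SCN8A at 0.20 (0.0017 to 0.40) and CACNA1A at 0.21 (0.08 to 0.35). The median over the 10 genes was -0.28, beside 0.01 over all genes. Neuronal reference genes in the same nuclei gave -0.16 (-0.24 to -0.07) for SYT1, -0.07 (-0.21 to 0.06) for SNAP25, -0.03 (-0.35 to 0.29) for SLC17A7, -0.49 (-0.94 to -0.03) for CAMK2A, -0.19 (-0.61 to 0.23) for GAD2, 0.11 (-1.0 to 1.33) for GAD1 and 0.52 (-0.44 to 1.59) for RBFOX3. Those of SYT1, SNAP25, SLC17A7, CAMK2A and GAD2 were below 0, with intervals clear of 0 for SYT1 and CAMK2A. GAD1 and RBFOX3 were above 0, but they rest on 10 and 12 upper-band UMIs and their intervals include 0. SCN2A in oligodendrocytes was at 33.4% and 19.7% of the neuron level, below SNAP25 (53.5% and 44.6%) and above SYT1 (11% and 10%). The part of free neuronal RNA in the SCN2A difference was not tested. CACNG4 was under 1.5-fold, at -0.40 to -0.55, with doublets kept, at other clustering resolutions, with channel genes in the clustering or with a minimum of 1000 genes, and CACNA1A reversed to -0.08 when 2 times as many doublets were removed.

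In astrocytes the ratios ran from -0.20 for SCN2A to 0.07 for SCN9A. SCN1A was at -0.13 (-0.29 to 0.02), SCN8A at -0.12 (-0.44 to 0.20) and CACNA1E at -0.09 (-0.45 to 0.27). In precursors SCN2A was at 0.32 (0.05 to 0.59), CACNA1E at 0.32 (-0.03 to 0.68) and CACNG4 at -0.14 (-0.40 to 0.11). Of the 7 astrocyte and 5 precursor ratios, the intervals of CACNA2D3 in astrocytes, at -0.11 (-0.19 to -0.03), and of SCN2A in precursors were clear of 0. One astrocyte cluster, led by ANGPT1 and GFAP, held 2 and 77 nuclei, so astrocyte makeup differed between the libraries.

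Partners of the channels were read, in the neuron classes, from lists that overlap the members' biology but hold no member. Over all genes tested, 7.86% were past 1.5-fold in excitatory and 2.96% in inhibitory nuclei. Of 15 genes of the axon initial segment and sodium channel complexes, such as ANK3 and FGF14, 13 were present by symbol and 12 had enough UMIs. Of the 12, 0 were past 1.5-fold in excitatory or inhibitory nuclei, with median log2 ratios of 0.06 and 0.0033. Of 28 calcium channel partners, 27 were present by symbol. In excitatory nuclei 24 had enough UMIs, of which 1 was higher and 1 lower. In inhibitory nuclei 21 had enough UMIs, of which 1 was higher. CACHD1, an α2δ-like protein, was lower in excitatory nuclei, where its levels were 26 and 6.96 CPM and the log2 ratio -1.90 (-2.10 to -1.71). It is among the leading genes of a FEZF2-high subcluster, whose group held 8.92% and 1.22% of excitatory nuclei, and the part of this share was not tested. Of 12 AMPA receptor genes and partners of the γ subunits, 11 were present by symbol and 10 had enough UMIs in each neuron class. GRIA4, an AMPA receptor subunit, was higher in excitatory nuclei, where its levels were 866 and 1312 CPM and the log2 ratio 0.60 (0.58 to 0.62), and CNIH3, a cornichon auxiliary subunit, was lower, with 59.7 and 38.7 CPM and the log2 ratio -0.62 (-0.72 to -0.53). None of the 10 was past 1.5-fold in inhibitory nuclei.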

How the data were processed

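Per the labels' protocols, nuclei were isolated from frozen somatosensory cortex and captured on the 10x Genomics platform; versions 6.2.1 and 2.1.1 of Cell Ranger are listed in the submitters' processing notes, and the matrix headers give software version 3.1.0. The authors deposited raw UMI counts per gene and barcode, not normalized (whole numbers in every cell), per the file headers; the genome build and annotation are not given in the sources used here. Barcodes with under 500 genes (7151 and 9694 barcodes before) and doublets called with Scrublet (scanpy 1.11.5; 11.7% and 15.2% of nuclei, above the 5.67% and 7.69% expected from loading) were removed. Leiden clusters (2000 variable genes without channel genes, 30 components, 15 neighbours, resolution 1; 0.4 for subclusters) were named where at least 3 listed markers were raised, by a scoring rule set after the clusters were seen.

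Counts were summed per class and library. Genes with 200 UMIs over both libraries entered band ratios. With 1 library per band no test was run, and calls are folds of 1.5 between bands and 2 between classes. Subgroup thresholds were set after the marker levels were seen. Doublet removal, the gene minimum, clustering, scaling, thinning, weighting and the UMI minimum were varied. Ratios and intervals (numpy 2.4.6, scipy 1.17.1) were tested on simulated data. Every channel gene with 200 UMIs in a class is named, and partners only past 1.5-fold; the members and lists were chosen with earlier results of these data known. Some genes are not reported here. No sequences are shown.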

Additional observations from a re-analysis of the deposited data

Results flagged for a closer look

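The inhibitory over excitatory log2 ratio of 2 channel genes had opposite signs in the 2 libraries, with each counting interval clear of 0. For CACNA2D3 it was 0.26 (0.23 to 0.28) in the upper and -0.12 (-0.15 to -0.10) in the deeper band. The opposite sign was lost under 3 alternatives, where the deeper-band ratio was 0.05 with doublets kept, 0.09 with means over nuclei and 0.10 after thinning. For SCN3A it was 0.16 (0.09 to 0.24) in the upper and -0.18 (-0.27 to -0.09) in the deeper band. The SCN3A ratio in the deeper band was -0.05 with doublets kept and -0.03 after thinning, with counting intervals that include 0. With 1 library per band the difference between the libraries was not tested, and the neuron subgroups that make up each class, in which CACNA2D3 differed severalfold, had different shares in the bands. Their part in the difference was not tested.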

How the results depend on the processing

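The alternatives were no doublet removal, 2 times as many doublets removed, a minimum of 1000 genes, resolutions of 0.5 and 2, channel genes allowed in the clustering, median-of-ratios scaling, the mean CPM over nuclei, thinning to 1500 UMIs and, for the bands, equal weight for each subcluster and a minimum of 100 UMIs. Where channel genes were allowed, 2 of them, CACNA1F and CACNG4, were among the variable genes of the class clustering. No paired analysis was possible because each band has 1 library, and for the same reason no replicate could be left out. Of the medians and counts, 159 values under alternatives stayed within the counting interval or within 1.5 times, 17 moved further and 2 reversed. Equal weighting left 0 excitatory channel genes past 1.5-fold between bands. It also turned excitatory ratios to -0.0646 (CACNA1C), 0.0190 (CACNA1E), -0.0033 (CACNA2D3), -0.0004 (CACNG2), -0.0958 (CACNG3), 0.13 (CACNG5) and -0.15 (SCN9A). Inhibitory ratios turned to 0.0757 (CACNA2D1) and 0.22 (CACNA2D3), the inhibitory median to 0.0386 and the count past 1.5-fold to 2. By construction this alternative removes the shares of the subclusters it keeps. It also leaves out those with under 50 nuclei in a library, and kept 9 of 12 excitatory and 4 of 12 inhibitory subclusters. The parts of the 2 in these changes were not told apart. With doublets kept, the inhibitory median was 0.0109, with CACNA2D1 at 0.0083 and SCN2A at 0.0109. CACNA2D3 inhibitory over excitatory in the deeper band was then 0.0471, and CACNA1E in ADARB2-high over MYO18B-high nuclei 0.46 and 0.46. The counts with doublets kept were 1 higher and 4 lower in inhibitory nuclei, 3 led by excitatory nuclei, and 11 between inhibitory subgroups. Thinning gave 3 inhibitory genes past 1.5-fold between bands and 7 between excitatory subgroups. It turned the band ratios of CACNA1B in excitatory (-0.0195) and CACNA1A in inhibitory nuclei (-0.0296). It also turned the inhibitory over excitatory ratios of CACNG7 in the upper band (-0.20) and of CACNA2D3 (0.10) in the deeper band. Means over nuclei gave an inhibitory median of -0.0143, 0 inhibitory genes past 1.5-fold and 0.0948 for CACNA2D3 inhibitory over excitatory in the deeper band. In oligodendrocytes the count past 1.5-fold was 1 with doublets kept, with a minimum of 1000 genes, at either resolution and with channel genes in the clustering, and 4 with a minimum of 100 UMIs, which gave 1 in precursors. CACNA1A in oligodendrocytes was -0.0804 with 2 times as many doublets removed. The causes of the changes were not tested. Depth limits the rarer members most, whose counting intervals are the widest.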
